A study of Homo sapiens with 23 samples.

Results

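The mitotic entry switch downstream of CHK1 was examined as 10 genes of the 21658 in the table, chosen by name and matched by NCBI Gene ID, and all 10 were found. They are the inhibitory kinases WEE1 and PKMYT1, the phosphatases CDC25A, CDC25B and CDC25C, the kinase CDK1, its cyclins CCNA2, CCNB1 and CCNB2, and the kinase PLK1. RNA was sequenced from 4 established ovarian cancer cell lines, OV-90, Kuramochi, OVSAHO and EFO-21, each as the parental line and as a form made resistant to the CHK1 inhibitor prexasertib by long exposure to rising drug concentrations. Each of the 8 groups has 3 biological replicate libraries except parental OV-90, which has 2, so that 23 libraries were compared. A single resistant form of each line was profiled, and neither whether it is clonal nor whether drug was present when RNA was taken is given in the sources used here. Values are log2 expression values as the authors deposited them, and a change is the resistant mean minus the parental mean of the same line.

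Entry into mitosis depends on CDK1 bound to a cyclin of the A or B type. WEE1 and PKMYT1 (also called MYT1) add phosphates to CDK1 that hold the complex inactive, and CDC25 phosphatases remove them. CHK1 acts on this balance by phosphorylating CDC25 proteins, which are then degraded or held away from CDK1, and by favouring WEE1, so that inhibition of CHK1 releases CDK1 early. PLK1 pushes the switch forward by activating CDC25C and marking WEE1 for destruction. Most of these genes are also transcribed in waves through the cell cycle, and in ovarian cancer cells with high replication stress the brake on CDK1 is a drug target in its own right.

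Read counts are not part of the table, so sequencing depth is unknown and precision rests on the spread between libraries. Over all genes the median difference of a library from the rest of its group was between 0.0907 and 0.294 on the log2 scale, except in parental OV-90, where the 2 libraries differed by 0.363, and the members differed there by a median of 0.22. The keratin genes KRT8 and KRT18, which mark epithelial cells, lay between 8.67 and 12.45 in every library. Other epithelial genes varied by line, with EPCAM between 2.48 and 6.59 in Kuramochi and 12.14 and 12.45 in OV-90, and KRT7 between 10.01 and 11.44 in OVSAHO but between 1.73 and 4.34 in the other lines. PAX8, a marker of Mullerian epithelium, lay between 8.42 and 9.50 in Kuramochi, OVSAHO and EFO-21 but only between 1.77 and 2.43 in OV-90, close to the 10th percentile of a library (1.70 to 1.87). WT1 was also low in OV-90 (1.47 to 2.09) and EFO-21 (0.00 to 1.21). The leukocyte marker PTPRC did not pass 4.65 in any library, while CD68 reached 9.82 and PECAM1 8.59 in EFO-21. All 10 members were well above the bottom of the table, between 5.14 and 11.27.

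The switch genes did not move together in any line, and each line changed a different set of them. With a call defined as an adjusted p under 0.05 in limma, adjusted over all genes, 1 member was higher and 4 were lower in resistant OV-90, where 18.1% of all genes were higher and 17.9% lower. In Kuramochi 3 were higher and 3 lower (all genes 23.6% and 23.3%), in OVSAHO 1 was higher and 2 were lower (17.1% and 16.2%), and in EFO-21 4 were higher and 2 lower (25% and 23.4%). The number of calls was thus near the background in each line. Changes of at least 2-fold were made by 1 member in OV-90 (WEE1; background 16.1%), 1 in Kuramochi (CDK1; 22.5%), 0 in OVSAHO (7.76%) and 2 in EFO-21 (PKMYT1 and CCNA2; 14.3%). The median size of the change over the 10 genes was 0.36 in OV-90, 0.31 in Kuramochi, 0.08 in OVSAHO and 0.18 in EFO-21, below the medians over all genes of 0.55, 0.51, 0.28 and 0.36. The resistant libraries lay entirely on one side of the parental libraries for 8 members in OV-90 (69.1% of all genes), 7 in Kuramochi (59.2%), 5 in OVSAHO (48.4%) and 7 in EFO-21 (59.7%). In OV-90 the calls depended on keeping all 3 resistant libraries, since limma called 0 members when any single one of them was left out. Leaving out a parental library leaves only 1, so the spread of that group cannot be measured. In bulk RNA, fewer cells in a phase of the cell cycle and less RNA per cell cannot be told apart.

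**Figure D1:**
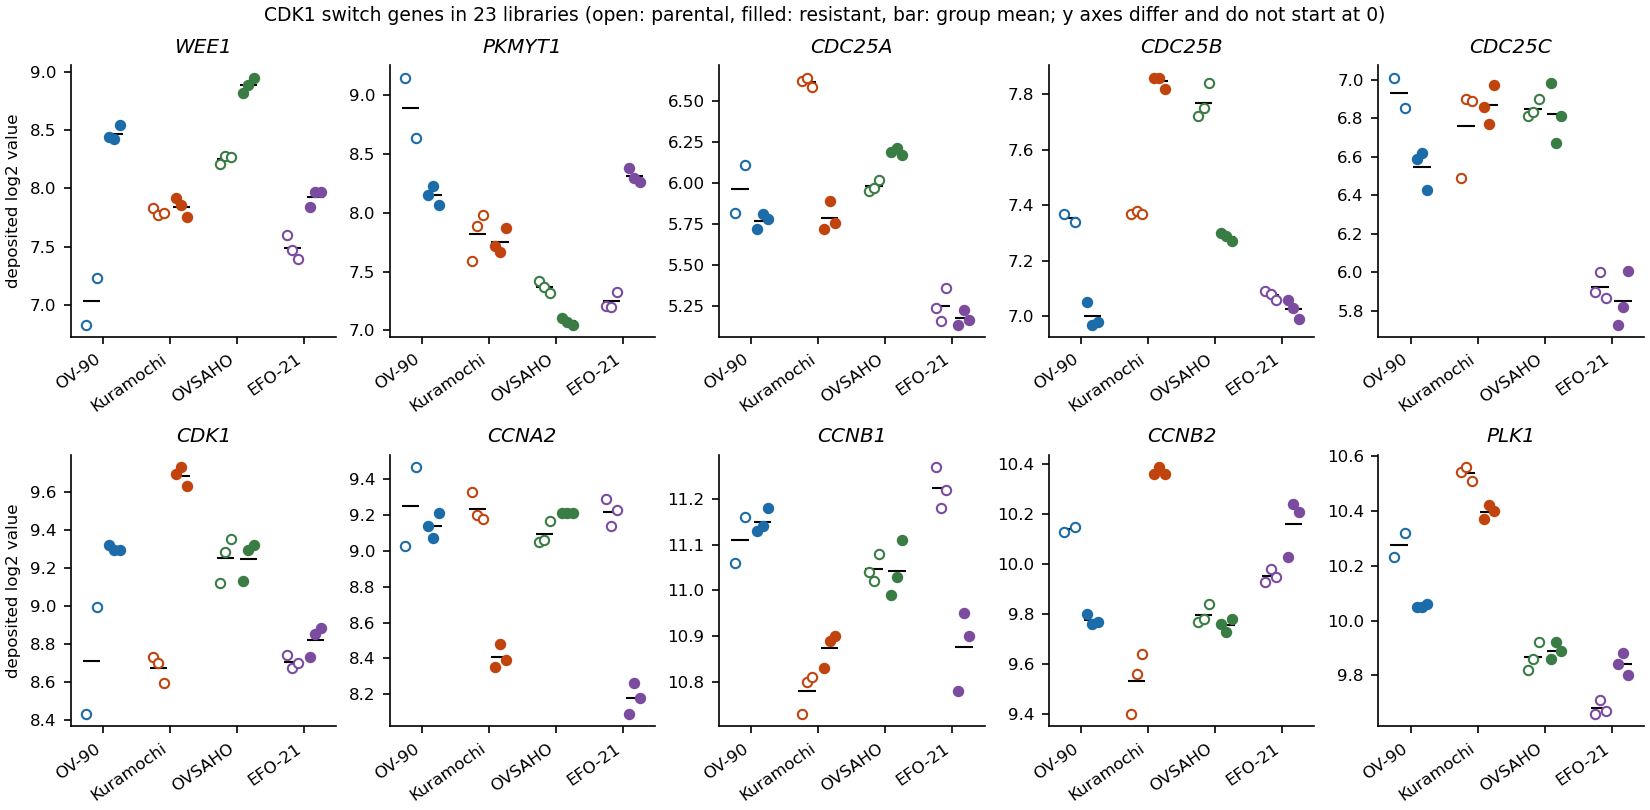
Deposited log2 values (y axis, a separate scale for each gene that does not start at 0) of the 10 switch genes in the 4 lines (x axis), with 1 point per library, open for parental and filled for resistant, and a bar at the group mean. WEE1 is higher in every resistant library of OV-90, OVSAHO and EFO-21 than in the parental libraries of the same line, while CCNA2 is lower in Kuramochi and EFO-21 and PKMYT1 is higher only in EFO-21.

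WEE1, on chromosome 11 (9595217 to 9615004 of GRCh37, plus strand), encodes the nuclear kinase that inhibits CDK1. It rose in 3 of the 4 resistant lines. In OV-90 it was 6.83 and 7.23 in the parental libraries and 8.44, 8.42 and 8.54 in the resistant ones. The 2.7-fold rise (log2 change 1.43, 95% confidence interval 1.07 to 1.80, adjusted p = 0.00946) was the largest of any member in any line, and the parental libraries, although they differed from each other by more than the libraries of other groups, both lay far below the resistant ones. In OVSAHO the values were 8.21, 8.28 and 8.27 before and 8.82, 8.89 and 8.95 after resistance, a log2 change of 0.64 (0.52 to 0.75, adjusted p = 0.000464). In EFO-21 they were 7.60, 7.47 and 7.39 against 7.84, 7.97 and 7.97, a change of 0.44 (0.27 to 0.61, adjusted p = 0.0035). Neither line's groups overlapped. Kuramochi was different, with 7.83, 7.77 and 7.79 in parental and 7.92, 7.86 and 7.75 in resistant libraries, which overlapped (0.05, -0.12 to 0.22, adjusted p = 0.61). The smaller change in Kuramochi was itself past the threshold against OV-90 (Kuramochi minus the other line -1.39, adjusted p = 4.58e-08), OVSAHO (-0.59, adjusted p = 0.000485) and EFO-21 (-0.39, adjusted p = 0.0103), whereas OVSAHO and EFO-21 could not be separated (OVSAHO minus EFO-21 0.19, interval -0.05 to 0.44, adjusted p = 0.23). Reads shared with its processed pseudogenes WEE1P1 and WEE1P2 were not analysed here.

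PKMYT1, on chromosome 16 (3018025 to 3030480, minus strand), encodes the membrane-bound relative of WEE1 that phosphorylates CDK1 in the cytoplasm. Its RNA moved in opposite directions in different lines. In EFO-21 it was 7.21, 7.20 and 7.33 in the parental libraries and 8.38, 8.30 and 8.26 in the resistant ones, a 2.09-fold rise (log2 1.07, 0.93 to 1.20, adjusted p = 6.81e-05). In OV-90 it was 9.15 and 8.64 before and 8.15, 8.23 and 8.07 after, a fall (-0.74, -1.18 to -0.30, adjusted p = 0.0327) whose size depends on a single parental library, since it was -0.49 (adjusted p = 0.0284) without library 2. Over all alternatives its adjusted p ran from 6.61e-05 to 0.114. The OVSAHO values fell from 7.42, 7.37 and 7.32 to 7.11, 7.07 and 7.05 (-0.29, -0.41 to -0.17, adjusted p = 0.00706). In Kuramochi the parental (7.59, 7.89 and 7.98) and resistant (7.72, 7.67 and 7.87) libraries overlapped (-0.06, -0.35 to 0.23, adjusted p = 0.687). The change in EFO-21 exceeded that in OV-90 by 1.81 (1.47 to 2.15, adjusted p = 1.07e-07), that in OVSAHO by 1.36 (1.04 to 1.68, adjusted p = 1.76e-06) and that in Kuramochi by 1.13 (0.81 to 1.45, adjusted p = 5.96e-06). PAQR4 and KREMEN2 overlap PKMYT1 on the opposite strand. The kit keeps the strand, but whether counting used it is not given in the sources used here. PAQR4 changed by 1.27 in EFO-21 (adjusted p = 0.00102) and by -0.94 in Kuramochi (adjusted p = 0.00295), where PKMYT1 was not called. KREMEN2 changed by 0.75 in EFO-21 (adjusted p = 0.0235) and by -2.52 in Kuramochi (adjusted p = 0.000529). In OV-90 PAQR4 changed by -0.31 (adjusted p = 0.0384) and KREMEN2 was not called, and in OVSAHO neither was called.

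Because WEE1 and PKMYT1 act on the same kinase, their difference was also followed within each library. The value of PKMYT1 minus WEE1 depends on how the genes are measured, so only its shift between groups is described. In OV-90 it was 2.32 and 1.41 in the parental and -0.29, -0.18 and -0.46 in the resistant libraries, and in OVSAHO it moved the same way, from -0.80, -0.91 and -0.95 to -1.71, -1.82 and -1.91. In EFO-21 it moved the other way, from -0.39, -0.27 and -0.06 to 0.54, 0.33 and 0.28. In Kuramochi the parental (-0.24, 0.12 and 0.19) and resistant (-0.19, -0.19 and 0.12) values overlapped. The RNA balance of the inhibitory kinases thus shifted toward WEE1 in OV-90 and OVSAHO and toward PKMYT1 in EFO-21, where both rose.

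**Figure D2:**
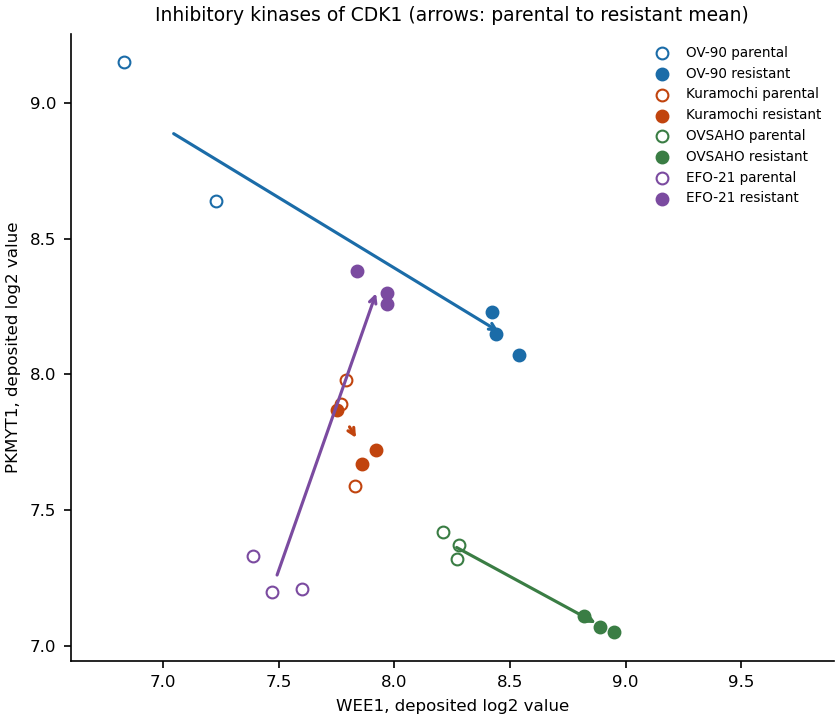
WEE1 (x axis) against PKMYT1 (y axis), both as deposited log2 values, in each of the 23 libraries, open for parental and filled for resistant, with an arrow from the parental to the resistant mean of each line. The OV-90 and OVSAHO arrows point to more WEE1 and less PKMYT1, the EFO-21 arrow to more of both, and the Kuramochi groups overlap.

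The CDC25 phosphatases, which reverse the work of WEE1 and PKMYT1, were lower where they were called, except for CDC25B in Kuramochi. CDC25A, on chromosome 3 (48198636 to 48229907, minus strand), acts at entry into S phase as well as into mitosis and is the member of the family that CHK1 sends for degradation. It fell in Kuramochi from 6.62, 6.64 and 6.58 to 5.72, 5.89 and 5.76, a 1.77-fold change (-0.82, -1.06 to -0.58, adjusted p = 0.000957). In OVSAHO it was 5.95, 5.97 and 6.02 before and 6.19, 6.21 and 6.17 after, without overlap but just outside the threshold (0.21, 0.05 to 0.37, adjusted p = 0.0504). The change in Kuramochi was more negative than in OVSAHO by 1.04 (0.79 to 1.28, adjusted p = 9.86e-07). In OV-90 (-0.20, adjusted p = 0.335) and EFO-21 (-0.07, adjusted p = 0.601) CDC25A was not called. The pseudogene NDUFB1P1, which overlaps CDC25A on the opposite strand, changed by 0.07 in Kuramochi (adjusted p = 0.703) and by -0.51 in EFO-21 (adjusted p = 0.00234).

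CDC25B, on chromosome 20 (3767419 to 3786768, plus strand), is the phosphatase that starts CDK1 activation at the centrosome. It was evenly measured, with libraries of a group never more than 0.12 apart, and it changed in 3 lines. In Kuramochi it rose from 7.37, 7.38 and 7.37 to 7.86, 7.86 and 7.82 (0.47, 0.33 to 0.62, adjusted p = 0.0012). In OVSAHO it fell from 7.72, 7.75 and 7.84 to 7.30, 7.29 and 7.27 (-0.48, -0.59 to -0.37, adjusted p = 0.00115). In OV-90 it fell from 7.37 and 7.34 to 7.05, 6.97 and 6.98 (-0.36, -0.57 to -0.14, adjusted p = 0.0347). The opposite changes in Kuramochi and OVSAHO differed by 0.96 (0.81 to 1.10, adjusted p = 2.05e-09). In EFO-21 the values were 7.09, 7.08 and 7.06 against 7.06, 7.03 and 6.99, which was not called (-0.05, -0.16 to 0.06, adjusted p = 0.37).

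CDC25C, on chromosome 5 (137620958 to 137674044, minus strand), is the phosphatase that PLK1 and CDK1 itself switch on in the final burst of activation. It was the single member called in no line. In OV-90 it was 7.01 and 6.85 in parental and 6.59, 6.62 and 6.43 in resistant libraries (-0.38, -0.69 to -0.08, adjusted p = 0.059), which did not overlap. It was past the threshold with the 23 libraries in one fit, and the change was -0.31 without library 2 and -0.46 without library 3. The changes in Kuramochi (0.10, -0.23 to 0.44), OVSAHO (-0.03, -0.25 to 0.19) and EFO-21 (-0.07, -0.32 to 0.18) had overlapping groups. It was also the single member for which the F test between lines was not past the threshold (adjusted p = 0.0749). FAM53C overlaps it on the opposite strand and rose by 1.18 in OV-90 (adjusted p = 0.0257), the other way from CDC25C.

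CDK1 and the B-type cyclins are classic targets of the transcription factors of G2 and M phase, which act through a cell cycle genes homology region (CHR) and CCAAT boxes near the start of the gene. RefSeq promoters (GRCh38.p14, 250 bases before to 50 after the start) were matched for 8 of the 10 members. Both strands were searched for the CHR, spelled TTTGAA in its usual form and TTTAAA in a variant, for the CCAAT box, spelled CCAAT, and for an E2F site, spelled TTTCCCGC, TTTCGCGC, TTTGCCGC or TTTGGCGC, and where a gene has several starts the one with the most matches was taken, which favours a match. A CHR was found for 5 members (CDC25C, CDK1, CCNB1, CCNB2 and PLK1) and in 24% of all 35116 promoters in the table, a CCAAT box for all 8 (34.6%), an E2F site for 2, CDC25A and CDK1 (3.31%), and both a CHR and a CCAAT box for 5 (9.27%). The single CHR match of CDC25C begins 43 bases after its start, which was taken from 4. Other spellings of these elements were not searched, so a promoter without a match, such as CCNA2 for the CHR, may still hold the element. No matches overlapped. The 140 bases from 120 before the start are shown for 6 members, to set the elements they share beside RNA changes that they did not share. Matches outside this window are not shown, among them the E2F site of CDK1, which begins 128 bases before the start. Capitals mark the matches in the order of the strand of the gene, reverse complements included, so that a CCAAT box on the other strand reads ATTGG and a CHR there reads TTCAAA.
CDK1: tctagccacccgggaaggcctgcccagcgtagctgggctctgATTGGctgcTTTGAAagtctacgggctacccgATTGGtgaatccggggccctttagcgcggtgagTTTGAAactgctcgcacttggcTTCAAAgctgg
CCNB1: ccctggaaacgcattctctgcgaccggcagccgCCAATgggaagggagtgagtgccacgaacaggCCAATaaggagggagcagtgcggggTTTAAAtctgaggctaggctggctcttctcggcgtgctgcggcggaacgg
CCNB2: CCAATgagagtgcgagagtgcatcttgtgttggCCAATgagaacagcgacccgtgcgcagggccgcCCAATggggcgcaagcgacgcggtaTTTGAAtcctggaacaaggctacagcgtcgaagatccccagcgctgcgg
PLK1: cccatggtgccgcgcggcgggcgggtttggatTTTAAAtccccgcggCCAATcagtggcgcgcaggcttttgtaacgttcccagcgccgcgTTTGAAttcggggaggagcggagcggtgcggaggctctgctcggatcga
CCNA2: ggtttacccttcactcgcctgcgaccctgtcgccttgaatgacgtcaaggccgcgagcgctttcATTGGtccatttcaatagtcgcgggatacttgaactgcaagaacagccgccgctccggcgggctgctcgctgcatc
CDC25A: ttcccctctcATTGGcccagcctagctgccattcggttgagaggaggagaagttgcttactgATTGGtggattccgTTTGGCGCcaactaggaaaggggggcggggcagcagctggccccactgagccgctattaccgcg
These windows lie at chr10:60778358-60778497 (CDK1, plus strand), chr5:69167030-69167169 (CCNB1, plus), chr15:59105026-59105165 (CCNB2, plus), chr16:23678769-23678908 (PLK1, plus), chr4:121823864-121824003 (CCNA2, minus) and chr3:48188398-48188537 (CDC25A, minus) of GRCh38.p14. CCNB1 and CCNB2 resemble each other closely in this respect, with a CHR beginning 30 and 29 bases before the start and CCAAT boxes 55 and 54 bases before it.

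CDK1, on chromosome 10 (62538089 to 62554610 of GRCh37, plus strand), is the kinase that the switch controls. It rose 2.01-fold in Kuramochi, from 8.73, 8.70 and 8.59 to 9.69, 9.73 and 9.63 (log2 1.01, 0.86 to 1.15, adjusted p = 7.12e-05), and the groups were far apart. In OV-90 it was 8.43 and 8.99 in the parental and 9.32, 9.29 and 9.29 in the resistant libraries, a change of 0.59 (0.14 to 1.05) that was not past the threshold (adjusted p = 0.0551). The parental libraries differed from each other. The change was 0.31 without library 2 and 0.87 without library 3, each of which leaves 1 parental library with no spread of its own. Over all alternatives the adjusted p of CDK1 in OV-90 ran from 0.000251 to 0.149. In OVSAHO the libraries overlapped almost completely (9.12, 9.28 and 9.35 against 9.13, 9.29 and 9.32), and in EFO-21 they were 8.74, 8.67 and 8.70 against 8.73, 8.85 and 8.88 (0.12, 0.00 to 0.24, adjusted p = 0.0995). The change in Kuramochi exceeded that in OVSAHO by 1.01 (0.72 to 1.31, adjusted p = 1.03e-05), in EFO-21 by 0.89 (0.59 to 1.18, adjusted p = 3.8e-05) and in OV-90 by 0.41 (0.10 to 0.73, adjusted p = 0.0246).

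CCNA2, on chromosome 4 (122737599 to 122745038, minus strand), encodes cyclin A2, which partners CDK2 in S phase and CDK1 in G2. It fell in 2 lines and was called in neither of the others. In EFO-21 it went from 9.29, 9.14 and 9.23 to 8.09, 8.26 and 8.18, a 2.06-fold fall (-1.05, -1.19 to -0.90, adjusted p = 8.26e-05). In Kuramochi it went from 9.33, 9.20 and 9.18 to 8.35, 8.48 and 8.39, a 1.78-fold fall (-0.83, -0.99 to -0.66, adjusted p = 0.000209). The size of the fall did not separate these lines (difference 0.22, -0.03 to 0.46, adjusted p = 0.142). In OVSAHO the resistant libraries were all at 9.21, just above the parental 9.05, 9.06 and 9.17 (0.12, 0.02 to 0.22, adjusted p = 0.0731), and the change differed from that in EFO-21 by 1.16 (0.91 to 1.41, adjusted p = 5.45e-07). In OV-90 the parental libraries, at 9.03 and 9.47, spanned the resistant ones at 9.14, 9.07 and 9.21, so that even the direction turned on 1 library (-0.33 without library 2 and 0.11 without library 3). EXOSC9 overlaps CCNA2 on the opposite strand and fell with it in EFO-21 (-1.32, adjusted p = 0.000227) and Kuramochi (-0.75, adjusted p = 0.00907), but also in OV-90 (-0.97, adjusted p = 0.00832), where CCNA2 was not called.

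CCNB1, on chromosome 5 (68462962 to 68474072, plus strand), encodes cyclin B1, the main mitotic partner of CDK1, and was called in the fewest lines of the cyclins. It was past the threshold only in EFO-21, where it fell from 11.27, 11.18 and 11.22 to 10.78, 10.95 and 10.90 (-0.35, -0.47 to -0.22, adjusted p = 0.00286). The changes of 0.04 in OV-90 (-0.12 to 0.20), 0.09 in Kuramochi (-0.03 to 0.21) and 0.00 in OVSAHO (-0.10 to 0.10) leave room for little more than 0.2 in either direction. The change in EFO-21 was below that in Kuramochi by 0.44 (0.29 to 0.58, adjusted p = 3.34e-05) and below that in OVSAHO by 0.34 (0.20 to 0.49, adjusted p = 0.000758). CCNB1 minus CCNA2 within a library rose in Kuramochi from 1.40, 1.60 and 1.63 to 2.48, 2.41 and 2.51. In EFO-21 this difference rose from 1.98, 2.03 and 1.98 to 2.69, 2.69 and 2.72. CCNA2 fell in Kuramochi while CCNB1 was not called, and in EFO-21 both fell, CCNA2 by more. In OVSAHO the difference went down, from 1.99, 1.96 and 1.91 to 1.79, 1.83 and 1.89, and in OV-90 the groups overlapped.

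CCNB2, on chromosome 15 (59397325 to 59417244, plus strand), encodes cyclin B2, a B-type cyclin found at the Golgi. Its RNA was past the threshold in Kuramochi, OV-90 and EFO-21. In Kuramochi it rose from 9.40, 9.56 and 9.64 to 10.36, 10.39 and 10.36 (0.84, 0.67 to 1.01, adjusted p = 0.00024). In OV-90 it fell from 10.13 and 10.15 to 9.80, 9.76 and 9.77 (-0.37, -0.50 to -0.23, adjusted p = 0.0159), with both groups tight, and the changes in these lines differed by 1.21 (1.03 to 1.39, adjusted p = 1.57e-09). In EFO-21 it rose slightly, from 9.93, 9.98 and 9.95 to 10.03, 10.24 and 10.21 (0.21, 0.06 to 0.35, adjusted p = 0.0313), a call that was lost without any 1 of libraries 10, 11, 12, 23 or 24 (0.17 to 0.22) and without the mean-variance trend. The OVSAHO groups overlapped (-0.04, adjusted p = 0.374). Its processed pseudogene CCNB2P1 is listed separately in the table, and how reads shared with it were assigned is not given in the sources used here.

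PLK1, on chromosome 16 (23688977 to 23701688, plus strand), encodes the polo-like kinase. Its called changes were small, between -0.22 and 0.16. It fell in OV-90 from 10.23 and 10.32 to 10.05, 10.05 and 10.06 (-0.22, -0.37 to -0.07, adjusted p = 0.0407) and in Kuramochi from 10.54, 10.56 and 10.51 to 10.37, 10.42 and 10.40 (-0.14, -0.25 to -0.03, adjusted p = 0.042). In EFO-21 it rose from 9.66, 9.71 and 9.67 to 9.84, 9.88 and 9.80 (0.16, 0.08 to 0.24, adjusted p = 0.00864). All of these groups were separate, yet the Kuramochi call was lost under 8 of 11 alternatives (adjusted p from 0.00488 to 0.177) and the OV-90 call under 6 of 10 (0.000356 to 0.154), while the EFO-21 call held under all 11. The Kuramochi call was kept without library 4 but lost without any other single library (-0.15 to -0.13). In OVSAHO the libraries overlapped (0.02, -0.07 to 0.11, adjusted p = 0.684). ERN2, which overlaps PLK1 on the opposite strand, rose by 1.16 in EFO-21 (adjusted p = 0.0285), where PLK1 rose by 0.16, and its part in that change was not tested.

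**Figure D3:**
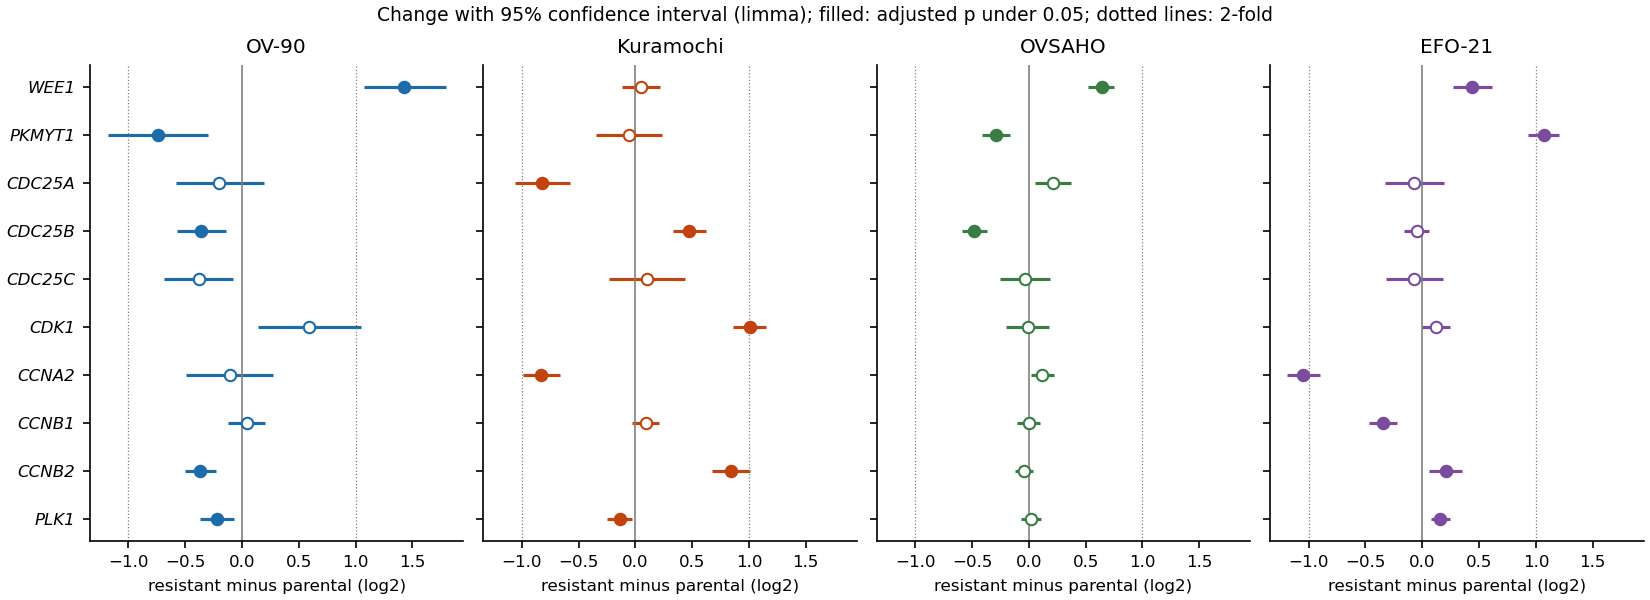
Resistant minus parental change on the log2 scale (x axis) of each switch gene (y axis) in the 4 lines, with its 95% confidence interval from limma, filled where the adjusted p is under 0.05, and dotted lines at 2-fold. WEE1 is the member furthest to the right in OV-90 and OVSAHO, CDK1 in Kuramochi and PKMYT1 in EFO-21.

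Set side by side, the lines differed in nearly every member. The change differed between lines for 9 of 10 members in limma's F test (all genes 75.1%), with adjusted p from 4.56e-09 (CDC25B) to 7.18e-05 (CCNB1). CDC25C was the exception (adjusted p = 0.0749). Averaged over the lines, WEE1 (0.64, 0.55 to 0.73, adjusted p = 1.08e-09), CDK1 (0.43, 0.32 to 0.53, adjusted p = 1.55e-06) and CCNB2 (0.16, 0.10 to 0.22, adjusted p = 0.000147) were higher, where 29.8% of all genes were. CCNA2 (-0.47, -0.56 to -0.38, adjusted p = 5.97e-08), CDC25A (-0.22, -0.31 to -0.13, adjusted p = 0.000295) and CDC25B (-0.10, -0.16 to -0.05, adjusted p = 0.0015) were lower, where 28.6% of all genes were. WEE1 was the single member whose calls in separate lines all had the same sign in as many as 3 lines. PKMYT1, with calls in 3 lines, averaged -0.01 (-0.12 to 0.11).

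The parental lines already differed in the switch before resistance. The parental level differed between lines for 9 members, all but CCNA2 (adjusted p = 0.27), beside 95.6% of all genes. Parental WEE1 was highest in OVSAHO (8.25), then Kuramochi (7.80), EFO-21 (7.49) and OV-90 (7.03), and no neighbours in this order overlapped. Parental PKMYT1 had OV-90 at the top (8.89), then Kuramochi (7.82), with OVSAHO (7.37) and EFO-21 (7.25) overlapping. The parental line with the most PKMYT1 was therefore the one with the least WEE1. Among resistant lines WEE1 stood in the order OVSAHO (8.89), OV-90 (8.46), EFO-21 (7.93) and Kuramochi (7.84), the last pair overlapping, so that OV-90 moved from the lowest to the second place. Resistant EFO-21 had the highest PKMYT1 (8.31), where its parental form had been at the lowest. CDC25A and CDC25C were lowest in EFO-21 in both states, with CDC25A at 5.25 and 5.18 and CDC25C at 5.92 and 5.86.

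Genes that lie near a member on the chromosome were set beside it, using measured genes that start within 2 Mb. The counts are to be read beside the shares of all genes called higher and lower. These were 18.1% and 17.9% in OV-90, 23.6% and 23.3% in Kuramochi, 17.1% and 16.2% in OVSAHO, and 25% and 23.4% in EFO-21. In EFO-21, 93 of the 140 neighbours of PKMYT1 were called higher and 10 lower, with a median change of 0.50, below the 1.07 of PKMYT1 itself, where 25% of all genes were higher. PKMYT1 fell by 0.74 in OV-90 where 31 of these neighbours were lower and 16 higher (median -0.20). In OVSAHO it fell by 0.29 where 30 were lower and 6 higher (-0.12). Of the 14 neighbours of CCNA2, 10 were lower and 1 was higher in EFO-21, with a median of -0.98, close to the -1.05 of CCNA2, and 7 were lower and 1 higher in Kuramochi, with a median of -0.54. The neighbours of CDK1 in Kuramochi had 6 of 12 higher and 0 lower, with a median of 0.44. CDC25B fell by 0.48 in OVSAHO where 21 of its 53 neighbours were lower and 7 higher (median -0.28), and by 0.36 in OV-90 where 15 were lower and 6 higher (-0.29). In Kuramochi CDC25B rose by 0.47 where 27 neighbours were lower and 6 higher (-0.61). WEE1 rose by 1.43 in OV-90 and by 0.64 in OVSAHO, where its 39 neighbours had 14 higher and 3 lower (median 0.34) and 12 higher and 4 lower (0.20). In EFO-21 it rose by 0.44 where 5 neighbours were higher and 7 lower (-0.12). CDC25A fell by 0.82 in Kuramochi where 21 of its 89 neighbours were higher and 13 lower (median 0.08), and CCNB2 rose by 0.84 there where 5 of 28 were higher and 6 lower (-0.02). In OV-90 CCNB2 fell by 0.37 where 10 were higher and 3 lower (0.35), and PLK1 fell by 0.22 where 11 of its 33 neighbours were higher and 1 was lower (0.33). CDC25B and WEE1 thus lay on the same side as the median of their neighbours in some lines and on the other side in others. PKMYT1 lay on the same side as that of its neighbours in each line where it was called. In Kuramochi, where PKMYT1 was not called (-0.06), 43 of its 140 neighbours were lower and 12 higher (median -0.17). WEE1 was not called there either (0.05), where 16 of its 39 neighbours were higher and 4 lower (0.27). CCNA2 was not called in OV-90 (-0.11), where 5 of its 14 neighbours were lower and 0 higher (-0.38). The part of position in these changes was not tested.

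**Figure D4:**
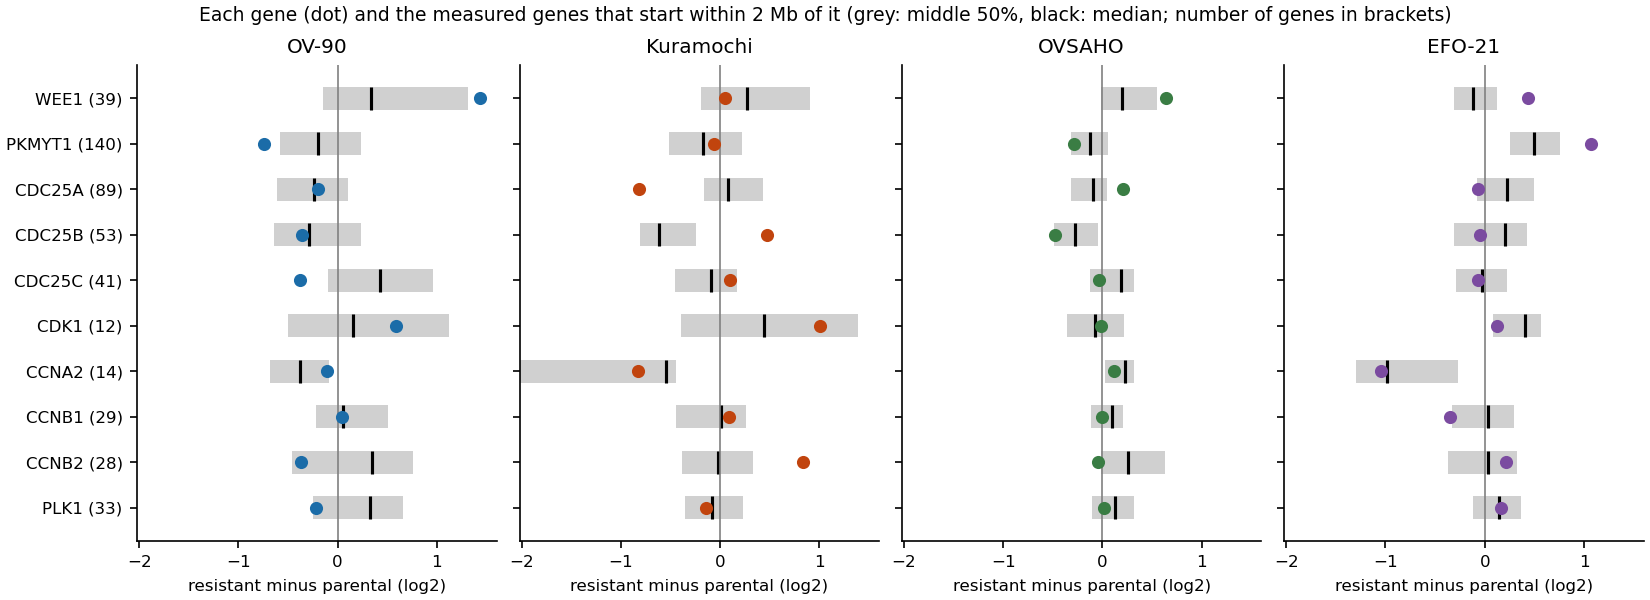
Change of each switch gene (coloured dot; x axis, resistant minus parental on the log2 scale) and of the measured genes that start within 2 Mb of it (grey bar, middle 50% of those genes; black line, their median; their number in brackets on the y axis). PKMYT1 and CCNA2 in EFO-21 sit with neighbours that moved the same way (medians 0.50 and -0.98), while CDC25B in Kuramochi lies above its neighbours (0.47 against a median of -0.61).

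The genes that feed into the switch were described from 9 lists, to be read beside median changes over all genes of -0.06 in OV-90, -0.02 in Kuramochi, 0.00 in OVSAHO and 0.01 in EFO-21. The counts of each list are likewise to be read beside the shares of all genes called higher and lower. In each line, the largest rise or fall named is that among the called genes of the list. It does not mark the line where that gene changed most. These shares were 18.1% and 17.9% in OV-90, 23.6% and 23.3% in Kuramochi, 17.1% and 16.2% in OVSAHO, and 25% and 23.4% in EFO-21. Among 15 checkpoint genes upstream, CHEK1, which encodes the target of prexasertib, rose 6.18-fold in Kuramochi, from 6.65, 6.79 and 6.81 to 9.37, 9.42 and 9.34 (log2 2.63, 2.46 to 2.80, adjusted p = 6.25e-06). It was not called in OV-90 (-0.10), OVSAHO (0.07) or EFO-21 (0.04), and the change in Kuramochi exceeded that in each of them (by 2.73, 2.56 and 2.59). Kuramochi was thus the line in which CHEK1 and CDK1 rose and WEE1 and PKMYT1 were not called. The checkpoint list as a whole had 1 gene higher and 3 lower in OV-90 (median 0.05) and in Kuramochi (0.00), 5 and 3 in OVSAHO (0.07), and 5 and 4 in EFO-21 (0.17). ATM, the kinase that senses double-strand breaks, had the largest called rise in OV-90 (1.75, adjusted p = 0.021) and OVSAHO (0.66, adjusted p = 0.0176), ETAA1, an activator of ATR, in EFO-21 (0.56, adjusted p = 0.00834). The largest falls were those of ATRIP, the partner of ATR, in OV-90 (-0.87), of HUS1, part of the clamp that loads at stalled forks, in Kuramochi (-0.89) and OVSAHO (-0.33), and of RAD1, of the same clamp, in EFO-21 (-0.55).

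Among 11 other CDK partners, CCNA1, the germline counterpart of CCNA2, had the largest fall in Kuramochi (from 5.92 to 2.17), OVSAHO (7.45 to 5.35) and EFO-21 (7.23 to 2.18). In Kuramochi and EFO-21 both A-type cyclins therefore fell. CCNE2, an E-type cyclin of CDK2, had the largest rise in OV-90 (1.29) and OVSAHO (0.94), CKS2, a CDK subunit, in Kuramochi (0.55) and CCNB3 in EFO-21 (1.19). CCNH, of the kinase that activates CDKs, fell most in OV-90 (-0.59). The CDK partners had 3 genes higher and 2 lower in OV-90 (median 0.04), 2 and 5 in Kuramochi (-0.25), 2 and 5 in OVSAHO (0.00), and 3 and 6 in EFO-21 (-0.21). Of the 9 Aurora kinases and PLK1 activators, AURKA, which activates PLK1, rose with CDK1 in Kuramochi (0.64, adjusted p = 0.00102), while BORA, its cofactor in that step, fell (-0.90, adjusted p = 0.00082). In OVSAHO AURKA was the single gene of the list that was lower (-0.17). HASPIN, a histone kinase of mitosis, had the largest rise in OV-90 (0.92), OVSAHO (0.30) and EFO-21 (0.46), and the largest falls in OV-90 and EFO-21 were those of BIRC5 (-0.54) and CDCA8 (-0.51), of the Aurora B complex. The Aurora list had 2 genes higher and 2 lower in OV-90 (median 0.06), 3 and 1 in Kuramochi (0.02), 2 and 1 in OVSAHO (0.05), and 4 and 3 in EFO-21 (0.16).

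The phosphatase PP2A-B55, held back in mitosis by Greatwall through ENSA, opposes CDK1. Of 11 genes of the Greatwall and PP2A-B55 list 1 was higher and 1 lower in OV-90 (median 0.21), 4 and 3 in Kuramochi (0.09), 5 and 1 in OVSAHO (0.08), and 1 and 4 in EFO-21 (-0.10). ENSA had the largest fall in OV-90 (-0.39) and Kuramochi (-0.50), and the B55 subunit PPP2R2D in OVSAHO (-0.38) and EFO-21 (-0.51). The largest rise within the list was that of the scaffold PPP2R1B in OV-90 (0.59) and of the B55 subunit PPP2R2B in OVSAHO (1.85). It was that of PPP2R2C in Kuramochi, from a parental mean of 0.97, at the bottom of the table, to 4.08, and in EFO-21 (0.38). PPP2R2B itself rose more in Kuramochi (2.43), from a parental mean of 1.51, and PPP2R2C rose by 0.51 in OVSAHO. The list of ubiquitin ligases that destroy switch proteins has 25 genes, not all of them parts of a ligase. Of these, 3 were higher and 8 lower in OV-90 (median -0.04), 5 and 7 in Kuramochi (-0.08), 4 and 6 in OVSAHO (-0.12), and 2 and 10 in EFO-21 (-0.19). The counts include inhibitors of the anaphase-promoting complex. Of these inhibitors, MAD2L1 was lower in Kuramochi, OVSAHO and EFO-21, and FBXO5 was lower in Kuramochi and EFO-21 but higher in OV-90 and OVSAHO. MAD2L1, a checkpoint inhibitor of the anaphase-promoting complex, fell most in EFO-21 (-1.18, adjusted p = 0.0014), where ANAPC2 rose most (0.42). CDC16, a subunit of the complex, fell most in Kuramochi (-1.47), where ANAPC4 rose most (0.79), and the subunits ANAPC11 and ANAPC15 fell most in OV-90 (-0.98) and OVSAHO (-0.59). FBXW11, which recognises phosphorylated WEE1 and CDC25A, had the largest rise in OV-90 (1.41, adjusted p = 0.0316), and FBXO5, an inhibitor of the complex, in OVSAHO (0.42).

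The 22 regulators of G2 and M transcription had 7 genes higher and 2 lower in OV-90 (median 0.35), 3 and 6 in Kuramochi (-0.09), 6 and 3 in OVSAHO (0.15), and 11 and 4 in EFO-21 (0.17). E2F7, a repressor among the E2F factors, had the largest rise in OV-90 (1.64, adjusted p = 0.0233) and OVSAHO (0.80, adjusted p = 0.000751), and E2F2, an activator, in EFO-21 (0.81, adjusted p = 0.00124). In Kuramochi E2F5 fell from 7.79 to 3.19 (adjusted p = 8.06e-06) and RBL2 had the largest rise (0.88), and E2F5 also fell most in EFO-21 (-0.69). LIN37, of the DREAM complex, fell most in OV-90 (-1.03) and RB1 in OVSAHO (-1.11). Among 12 CDK inhibitors and 14-3-3 genes, 6 were higher and 2 lower in OV-90 (median 0.47), 5 and 2 in Kuramochi (0.19), 5 and 1 in OVSAHO (0.15), and 4 and 4 in EFO-21 (-0.01). SFN, the 14-3-3 protein that keeps CDK1 and cyclin B1 out of the nucleus after damage, had the largest fall in OV-90 (13.73 to 12.91), Kuramochi (8.19 to 4.86) and OVSAHO (7.99 to 5.84). The largest rise within the list was that of GADD45A, a damage-induced inhibitor of CDK1, in OVSAHO (0.79) and EFO-21 (0.53). It was that of YWHAG in OV-90 (1.76) and of CDKN1C in Kuramochi (2.81). GADD45A itself rose more in Kuramochi (1.32) and was lower in OV-90 (-0.20). CDKN1C had the largest fall in EFO-21 (-1.06).

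The 10 members were finally set beside other cell cycle genes. Over all genes, the shares higher and lower were 18.1% and 17.9% in OV-90 and 23.6% and 23.3% in Kuramochi. They were 17.1% and 16.2% in OVSAHO and 25% and 23.4% in EFO-21. Of 20 S phase genes, 18 were higher and 0 lower in OVSAHO (median change 0.42, with 17.1% of all genes higher) and 18 higher and 1 lower in EFO-21 (0.47, with 25%), led by RRM1 (0.73) and MCM2 (0.90), with PRIM1 the exception in EFO-21 (-0.50). WEE1 rose in both of these lines. In OV-90, where WEE1 rose most, 2 S phase genes were higher and 6 lower (median 0.02), from MCM4 (1.10) to CDC45 (-1.04), and in Kuramochi 7 were higher and 2 lower (0.12), from CDT1 (0.88) to PCNA (-0.75). Of 19 other G2 and M phase genes, 6 were higher and 0 lower in OV-90 (median 0.45), with TOP2A at 1.62, although CCNB2, PLK1 and PKMYT1 fell there. In OVSAHO 9 were higher and 1 lower (0.25), with ASPM at 0.50 and PRC1 at -0.15, while CDK1, CCNB1, CCNB2 and PLK1 were not called. Kuramochi had 7 higher and 2 lower (0.03), with NCAPG at 0.71 and NCAPH at -0.39, and EFO-21 had 5 higher and 6 lower (-0.03), with KIF11 at 0.48 and CENPE, a kinetochore motor, at -1.46. The part of cell cycle phase in the changes of the members was not tested.

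**Figure D5:**
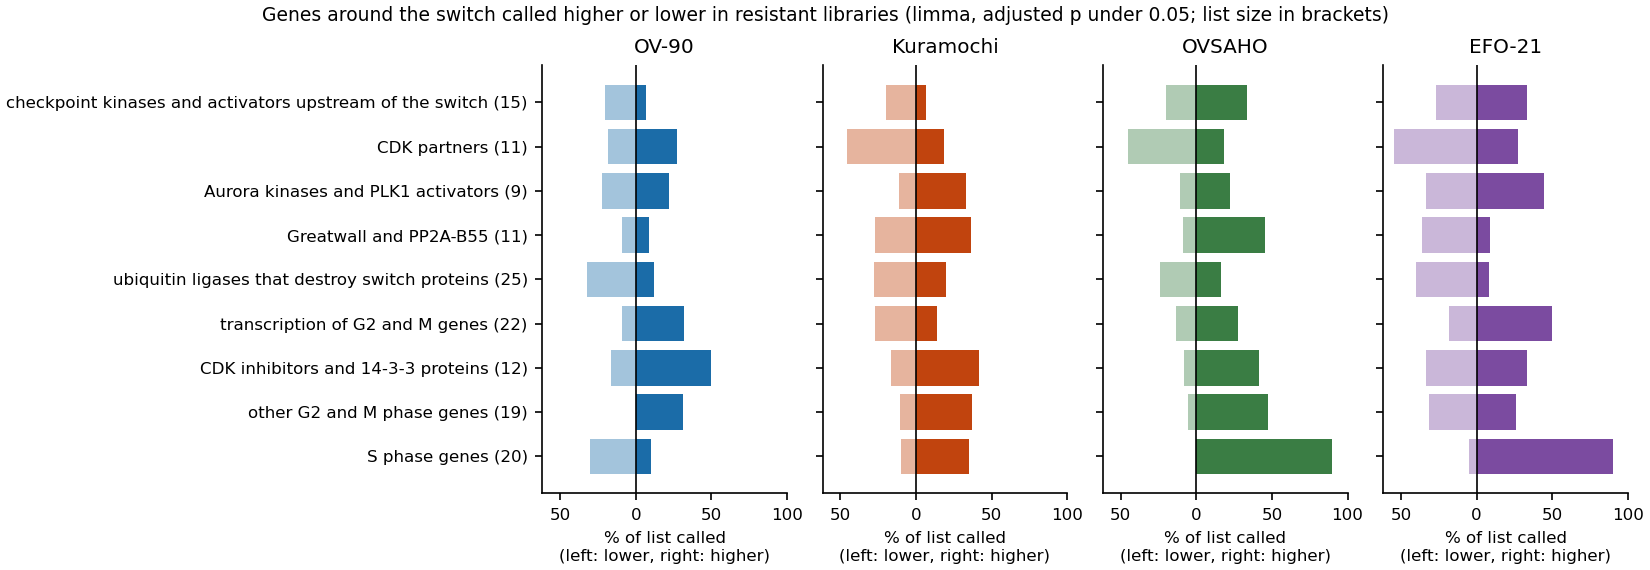
Share of each gene list (y axis, number of genes in brackets) called higher (right, dark) or lower (left, pale) in resistant libraries of each line, in percent of the list (x axis). The S phase genes stand out on the right in OVSAHO and EFO-21 (18 of 20 higher in each). More genes of the ubiquitin ligase list, which also holds inhibitors such as MAD2L1 and FBXO5, lie to the left than to the right in each line. Those lower ran from 6 of 25 in OVSAHO to 10 of 25 in EFO-21 (all genes 16.2% and 23.4% lower).

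Over the 23 libraries, with the mean of each line taken away, the members did not follow a common course. Of 45 pairs of members, 6 had a Pearson r above 0.5 and 11 an r below -0.5. CDC25B and CCNB2 were the most alike (0.71), followed by CDC25A and CCNA2 (0.69), and CDC25A and CDK1 the most opposed (-0.79). CCNB1 and CCNB2 had an r of 0.05, and WEE1 and PKMYT1 of -0.33. Each member was also set beside the whole table. SBF2, which starts 0.203 Mb from WEE1 on chromosome 11, and CBFB were most like WEE1 (0.96 each). RAP1GDS1 and UBE2D3, 23.6 and 19 Mb from CCNA2 on chromosome 4, were most like it (0.97 each), and BTF3, 4.33 Mb from CCNB1 on chromosome 5, and MRPL18 were most like CCNB1 (0.95 each). For PKMYT1 they were DDT and DDTL (0.98), near-identical copies whose reads may be shared, for CDK1 SARAF (0.98) and STK38 (0.97), for CDC25B NPEPL1 (0.98) and EPHB6 (0.95), for CCNB2 ADORA2B and SHMT1 (0.98 each) and for CDC25A SULF1 (0.97) and a gene without a symbol (0.96). CDC25C (PRMT7, 0.88, and PFDN6, 0.87) and PLK1 (TRIP13, a mitotic checkpoint ATPase, 0.91, and ASTN2, 0.89) had the weakest likenesses. Libraries of a group share a culture history, so these values describe the libraries and carry no p-value.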

How the data were processed

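Total RNA of 4 ovarian cancer cell lines, parental and prexasertib-resistant, was sequenced by the authors as paired ends of stranded mRNA libraries. They mapped reads to GRCh37/hg19 with GSNP, dropped exons that few reads covered, and summarised exons and junctions per gene by a robust linear model, as marked for all 10 members. The deposited values are on the log2 scale after quantile normalization by the authors, which would hide a shift of most genes together. No read counts are held, depth is unknown, and 0 columns belonged to other samples. The number of exons was not used. Whether values are per gene length is not given in the sources used here, so levels were not compared between genes.

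Libraries were grouped by line and resistance and are named by the number in their column (2 to 24). Each line was fitted alone with limma 3.58.1 (R 4.3.3; empirical Bayes moderation with a mean-variance trend, no filter, no pseudocount), two-sided, with Benjamini-Hochberg adjustment over 21658 genes and a threshold of 0.05. A fit of all 23 libraries with 8 group means gave the F tests between lines, the average, and the differences of changes between pairs of lines. Exact permutation tests of 3 against 3 or 2 against 3 libraries cannot give a two-sided p below 0.1 or 0.2 and are not reported. The code was tested on simulated data.

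The members and lists were chosen with earlier results of these data known. Named genes are the 10 members in every line, the called gene with the largest rise and the largest fall of each list in each line, CHEK1, and the 2 genes most correlated with each member. Genes that overlap a member in GENCODE annotation lifted to GRCh37 (PAQR4, KREMEN2, NDUFB1P1, FAM53C, EXOSC9 and ERN2) were added after their values were seen. Alternatives were no trend, robust moderation, a filter at the 25th percentile of gene means, recentring, 1.5-fold and 2-fold thresholds, 1 fit of 23 libraries, and leaving out each library.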

Additional observations from a re-analysis of the deposited data

Results flagged for a closer look

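For 9 of the 10 members the resistant minus parental change differed between the 4 lines in limma's F test over 23 libraries, a test of the difference itself, which 75.1% of all genes also passed. The adjusted p was 4.56e-09 for CDC25B, which rose in Kuramochi and fell in OVSAHO and OV-90, and 4.67e-09 for CCNB2, which rose in Kuramochi and EFO-21 and fell in OV-90. It was 1.02e-07 for PKMYT1, which rose in EFO-21 and fell in OV-90 and OVSAHO, and 2.02e-07 for CCNA2, which fell in Kuramochi and EFO-21. It was 2.33e-07 for WEE1, which rose in OV-90, OVSAHO and EFO-21, 3.76e-06 for CDC25A, which fell in Kuramochi, and 1.55e-05 for CDK1, which rose in Kuramochi. It was 4.91e-05 for PLK1, which fell in OV-90 and Kuramochi and rose in EFO-21, and 7.18e-05 for CCNB1, which fell in EFO-21.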

How the results depend on the processing

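Of the 20 calls of members in the 4 lines, 12 stayed past the threshold under every alternative other than a fold threshold, 8 were lost under at least 1, and 0 changed direction. The 8 were all 5 calls in OV-90, PLK1 in Kuramochi, PKMYT1 in OVSAHO (adjusted p = 0.0551 with 23 libraries in one fit) and CCNB2 in EFO-21. Of the 20 comparisons not called, 6 were past the threshold under at least 1 alternative. For CCNA2 in OV-90 this was only where 1 parental library was left. The number of members called in OV-90 was 0 without any 1 resistant library, which leaves 2 against 2. Without 1 library it ranged from 5 to 6 in Kuramochi, from 3 to 4 in OVSAHO and from 5 to 7 in EFO-21. With no mean-variance trend 3 members were called in OV-90. At 2-fold 1 was called in OV-90, 1 in Kuramochi, 0 in OVSAHO and 2 in EFO-21, and at 1.5-fold 2 in OV-90, 4 in Kuramochi, 1 in OVSAHO and 2 in EFO-21. Only changes that were not called turned direction without 1 library: CCNA2 (-0.33 to 0.11) and CCNB1 (-0.01 to 0.09) in OV-90, PKMYT1 (-0.18 to 0.02) and CDC25C (-0.03 to 0.17) in Kuramochi, and CDC25C (-0.11 to 0.05), CDK1 (-0.07 to 0.05), CCNB1 (-0.03 to 0.03) and PLK1 (0.00 to 0.05) in OVSAHO. The number of members whose change differed between lines was 9 or 10, and that of members called on average 6 to 8, under each alternative run. Recentring moved no library by more than 0.0806. No paired analysis was possible because the columns carry no replicate number. Where a group was left with 1 library, that library was assumed to vary like the others. Changes under about 0.2 were close to what the spread between libraries can show, and the cause of the lost calls was not tested.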
